A study of Homo sapiens with 9 samples.

Results

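The MAGE genes described here are 8 X-linked cancer-testis genes, MAGEA10, MAGEA1, MAGEA3, MAGEA4, MAGEA6, MAGEA12, MAGEB2 and MAGEC2, out of 36601 genes in the count matrices. They were matched by symbol, and all 8 are present in every library. The list was chosen by measured values of these same libraries, namely the UMIs per cell, the share of cells with a UMI and the deposited burst parameter K1. Those values are therefore given below as a description. The fits over all genes further below include these genes, and nothing is read from their calls. The study measured single-cell RNA in U2OS, a human osteosarcoma line, with RPB1, the largest subunit of RNA polymerase II, carrying either HaloTag or Dendra2 at its N-terminus and a C-terminal domain (CTD) of 25, 52 or 70 heptad repeats (25R, 52R and 70R). All 6 lines had been kept in α-amanitin, an inhibitor of the polymerase, at 1 µg/ml for 6 days, so no library is free of the drug. Each genotype is 1 library (HaloTag 25R, HaloTag 52R, HaloTag 70R, Dendra2 25R, Dendra2 52R, Dendra2 70R), with no biological replicate. Whether a line is a single clone is not stated in the labels. The HaloTag and Dendra2 libraries were sequenced separately, so the tag and the sequencing cannot be told apart.

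MAGE genes are normally active in germ cells and silent in most somatic tissues, where methylation of DNA at their promoters keeps them off, and they are switched on again in many tumours. Type I MAGE genes lie on the X chromosome in clusters of closely similar copies, and their proteins bind RING ubiquitin ligases through a shared MAGE homology domain. Once switched on, such a gene can be active in some cells of a tumour and silent in others.

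Promoter windows (250 bases before to 50 after a start) of 6 of the 8 genes were found in RefSeq (GRCh38.p14), and those of MAGEA10 and MAGEA1 were not used here. The windows of MAGEA3 (chrX:152698544-152698843, plus strand) and MAGEA6 (chrX:152769640-152769939, minus strand) are shown because these neighbours have the same promoter letters and very different levels below. They differ at 0 of 300 bases, so no base is in capitals.

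MAGEA3: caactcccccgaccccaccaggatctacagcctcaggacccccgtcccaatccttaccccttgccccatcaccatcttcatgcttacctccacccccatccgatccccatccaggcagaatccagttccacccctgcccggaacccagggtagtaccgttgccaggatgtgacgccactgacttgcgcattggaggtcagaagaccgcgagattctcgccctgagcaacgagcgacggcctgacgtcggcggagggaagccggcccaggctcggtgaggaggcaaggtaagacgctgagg

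MAGEA6: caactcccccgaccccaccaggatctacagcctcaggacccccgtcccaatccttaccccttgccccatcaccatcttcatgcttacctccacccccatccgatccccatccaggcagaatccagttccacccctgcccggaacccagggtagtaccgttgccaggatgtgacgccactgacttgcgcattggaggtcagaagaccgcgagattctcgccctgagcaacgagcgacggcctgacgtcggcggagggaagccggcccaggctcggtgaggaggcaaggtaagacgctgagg

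Both windows hold 19 CG dinucleotides, against a median of 14 in 35116 promoter windows of the same length, 96.0% of which hold at least 1. MAGEB2 held 21, MAGEC2 10, MAGEA4 10 to 15 over 5 windows and MAGEA12 9 or 15 over 2. The longest protein-coding transcripts of MAGEA3 and MAGEA6, of 1762 bases each in GENCODE v44, were identical over 497 of their last 500 bases, the part a 3′ library reads. The 3 differences lay 237, 241 and 494 bases from the 3′ end. A read that covers none of them cannot be assigned to either gene, so the counts of both are uncertain. The next closest pair, MAGEA6 and MAGEA12, was identical over 89.3% of aligned positions.

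Between 2718 and 4677 cells per library were kept, with 52553686 to 58442223 UMIs in all and a median of 10812 to 18739 UMIs per cell. At most 0.224% of the cell barcodes of a library were shared with another. The labels call the cells epithelial and the tissue bone. Levels are given as CPM, the UMIs of a gene in every 1e6 UMIs of a library. The 8 epithelial markers together reached 848 to 1571.5 CPM, mostly KRT18 (699 to 1266 CPM) and KRT8 (144 to 551 CPM). Of the others, EPCAM and CDH1 stood at 0.221 to 7.65 CPM and 0.111 to 0.428 CPM. The 8 mesenchymal markers together reached 2930 to 4126 CPM, mostly VIM. Among them, COL1A2 was at 0 to 0.203 CPM and ALPL at 0.466 to 5.20 CPM. By mean level, 2 of the 8 epithelial and 6 of the 8 mesenchymal markers reached 10 CPM. Summed leukocyte markers stayed at 0.280 to 2.67 CPM and summed germ cell markers at 0.205 to 0.317 CPM, with DDX4 and DAZL at 0.

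MAGEA10 (chromosome X, 152133310 to 152138578, minus strand, GRCh38), a cancer-testis antigen gene of the MAGE-A cluster, was the member that varied most. It had 31 UMIs in HaloTag 25R, 873 in HaloTag 52R and 1650 in HaloTag 70R, against 3244 in Dendra2 25R, 3531 in Dendra2 52R and 3708 in Dendra2 70R. These counts correspond to 0.530 CPM (exact 95% Poisson interval 0.360 to 0.753), 16.2 (15.2 to 17.3) and 30.4 (28.9 to 31.9) in the HaloTag libraries. In the Dendra2 libraries they correspond to 61.5 (59.4 to 63.7), 67.2 (65.0 to 69.4) and 69.1 CPM (66.9 to 71.4). The HaloTag and Dendra2 libraries did not overlap, and the order ran from HaloTag 25R to Dendra2 70R. The share of all genes with such a split is not given here, so the split itself is not read as a trait of MAGEA10. Only the neighbours Dendra2 52R and Dendra2 70R had overlapping counting intervals. Compared with Dendra2 25R, the lowest Dendra2 library, MAGEA10 was 116-fold lower in HaloTag 25R, 3.80-fold lower in HaloTag 52R and 2.02-fold lower in HaloTag 70R. Intervals here cover counting error only. Below, the 3 libraries of a tag are given in the order 25R, 52R, 70R. Because 3′ libraries count 1 end of a transcript, CPM was compared between genes with no length correction.

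**Figure D1:**
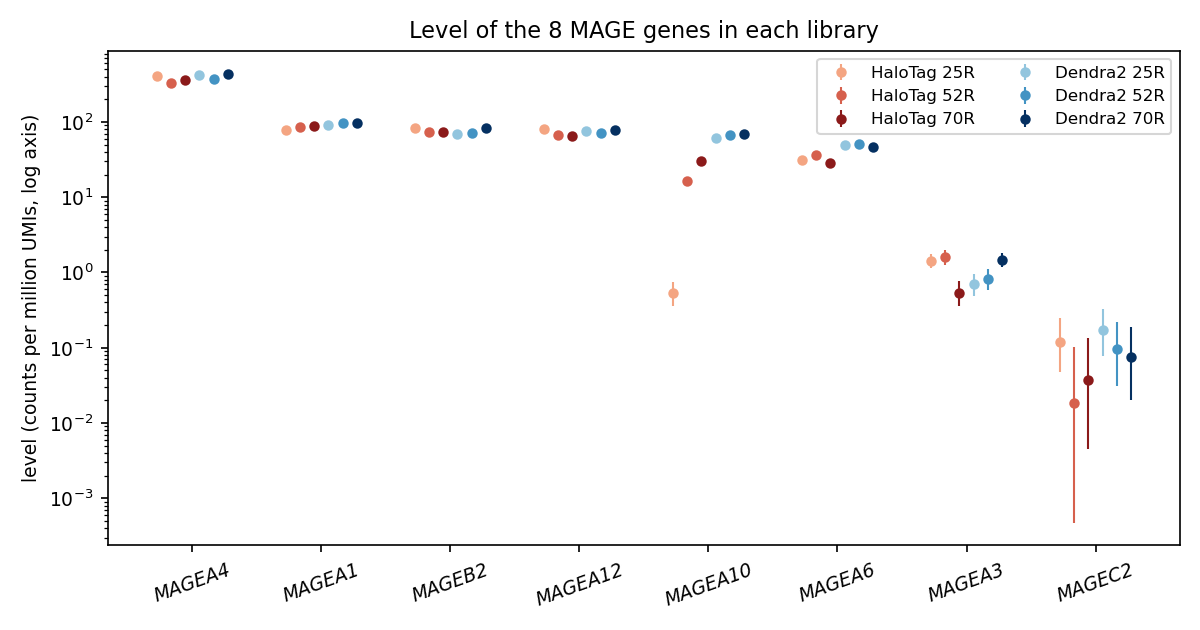
Level of the 8 MAGE genes in CPM (log axis), 1 point per library with its exact 95% Poisson interval. MAGEA10 spans 0.530 to 69.1 CPM, while MAGEA4, MAGEA1, MAGEB2 and MAGEA12 each stay within a narrow band over the same 6 libraries.

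A lower level can mean fewer UMIs in every cell or fewer cells with any. MAGEA10 had at least 1 UMI in 0.660% of cells in HaloTag 25R (23 cells), 14.4% in HaloTag 52R and 23.8% in HaloTag 70R. The share was 58.8% in Dendra2 25R, 66.5% in Dendra2 52R and 67.1% in Dendra2 70R. These shares were set against a Poisson share, the share of cells that would have a UMI if every cell held MAGEA10 at the same level per UMI. In the Dendra2 libraries the observed share was 0.968, 0.968 and 0.958 times the Poisson share for 25R, 52R and 70R. Genes of similar level, within 1.25-fold in UMIs per cell, had medians of 0.965, 0.967 and 0.964 in those libraries, so MAGEA10 was spread over the cells much like other genes there. In HaloTag 52R the Poisson share was 20.6% and the observed share 0.700 times that, against 0.974 for genes of similar level. In HaloTag 70R the ratio was 0.821 against 0.975. In HaloTag 25R it was 0.746 against 1.00, from 31 UMIs. In HaloTag 52R and HaloTag 70R the share of MAGEA10-positive cells was thus further below the Poisson share than that of genes of similar level. In HaloTag 25R the exact 95% interval of the observed share (0.419 to 0.989%) held the Poisson share of 0.885%. Both shares come from the same 31 UMIs, so this interval cannot decide whether there was such a gap. Those UMIs lay in 23 cells, with at most 3 in a cell.

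Depth per cell differed between libraries, so each cell was also thinned to 5000 UMIs. After thinning, MAGEA10 was found in 0.262% of cells in HaloTag 25R (exact 95% Clopper-Pearson interval 0.120 to 0.497), 6.64% in HaloTag 52R and 12.7% in HaloTag 70R. It was found in 26.5%, 28.5% and 27.7% in Dendra2 25R, 52R and 70R. The order of the HaloTag libraries was the same, while the Dendra2 libraries lay close together. In a library of 1 cell line there is no cell type known to lack the gene, so the background from free RNA was not measured. In HaloTag 52R the level of MAGEA10 was similar over 4 equal groups of cells ranked by depth, at 15.2, 15.2, 18.2 and 15.7 CPM from the shallowest to the deepest. The share of positive cells was 9.61% in the shallowest group and 18.7% in the deepest, and in Dendra2 52R 44.5% and 82.1%. In the deepest group of HaloTag 52R, with a median of 21024 UMIs per cell, most cells had no MAGEA10 UMI. At so low a level most would have none under an even spread too, so this alone does not show uneven expression.

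The deposited K1 showed the same split between libraries. In the authors' beta-Poisson tables the squared coefficient of variation of a well-expressed gene equals 1 over its mean plus 1 over K1, so a low K1 marks counts that are more uneven between cells. K1 of MAGEA10 was 0.0115 in HaloTag 25R (authors' limits 0.00503 to 0.0287), 0.209 in HaloTag 52R (0.177 to 0.247) and 0.552 in HaloTag 70R (0.474 to 0.650). It was 2.83 (2.34 to 3.49), 3.51 (2.86 to 4.39) and 2.90 (2.44 to 3.51) in Dendra2 25R, 52R and 70R. The median K1 of genes of similar level was 2.50 in HaloTag 52R, 2.76 in HaloTag 70R, and 2.76, 3.45 and 3.07 in the Dendra2 libraries. MAGEA10 was close to that median in the Dendra2 libraries and well below it in HaloTag 52R and HaloTag 70R. In HaloTag 25R, genes at so low a level had K1 quartiles of 0.609 and 11.7. The K1 of MAGEA10 there and its limits lay below the lower quartile, but they rest on 31 UMIs.

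**Figure D2:**
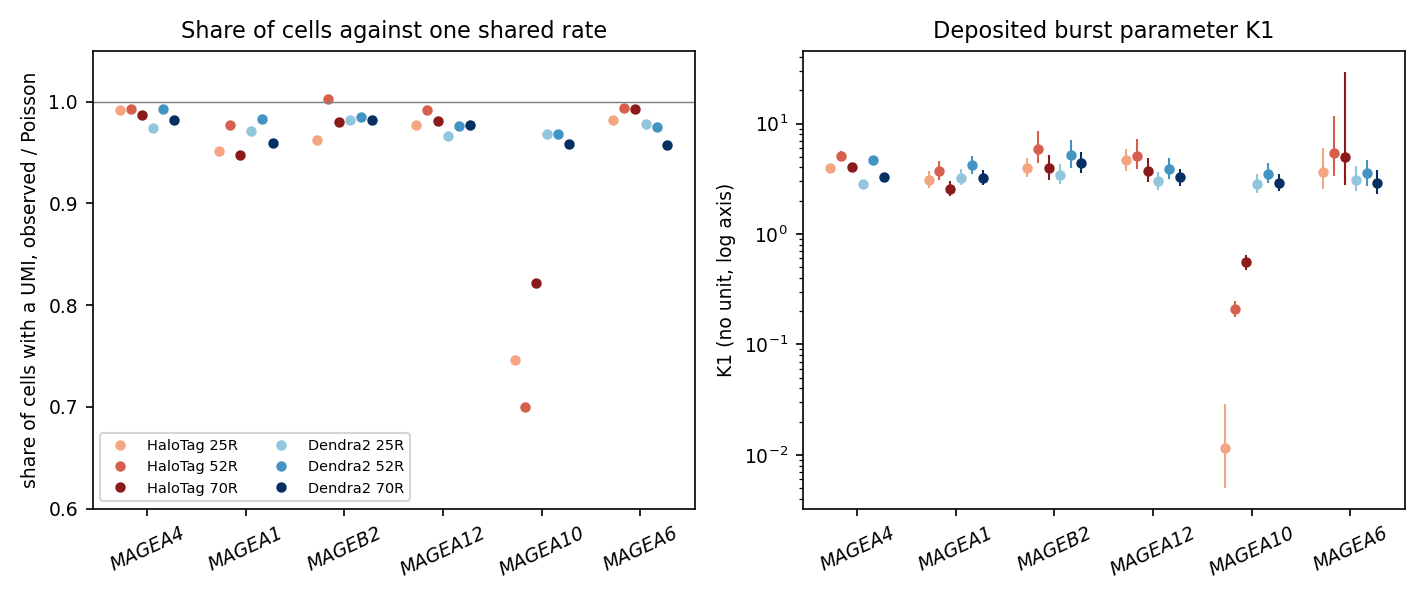
Left, observed share of cells with a UMI divided by the Poisson share for the 6 members above 10 CPM. Right, deposited K1 with the authors' limits (log axis). Each point is 1 library, and the HaloTag 52R and HaloTag 70R points of MAGEA10 lie apart in both panels, at 0.700 and 0.821 on the left and at 0.209 and 0.552 on the right. The HaloTag 25R points of MAGEA10 rest on 31 UMIs.

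Most MAGEA10-positive cells held a single UMI of it after thinning to 5000 UMIs. In HaloTag 52R, 198 thinned cells had 1 MAGEA10 UMI, 37 had 2 and 7 had 3. The share of positive cells with 2 or more was 18.2% there, against 15.5 to 17.3% in the Dendra2 libraries, although the HaloTag 52R level was lower. Those with 2 were 1.02% of cells against 0.298% under a Poisson count of the same mean, and those with 3 were 0.192% against 0.00799%. In Dendra2 52R, by comparison, 4.05% of cells had 2 UMIs against 3.96% under the Poisson count. In HaloTag 25R only 6 thinned cells had 1 UMI and 3 had 2. Those with 2 were 0.0874% of cells against 0.000609% under the Poisson count. The mean in positive thinned cells was 1.21 UMIs in HaloTag 52R, where a Poisson count of the same level would give 1.04, and 1.16 in HaloTag 70R, where it would give 1.08. The Dendra2 means were 1.18, 1.17 and 1.19, at Poisson values of 1.16, 1.18 and 1.18. A mean over positive cells cannot fall below 1, so it leaves little room for libraries to differ.

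**Figure D3:**
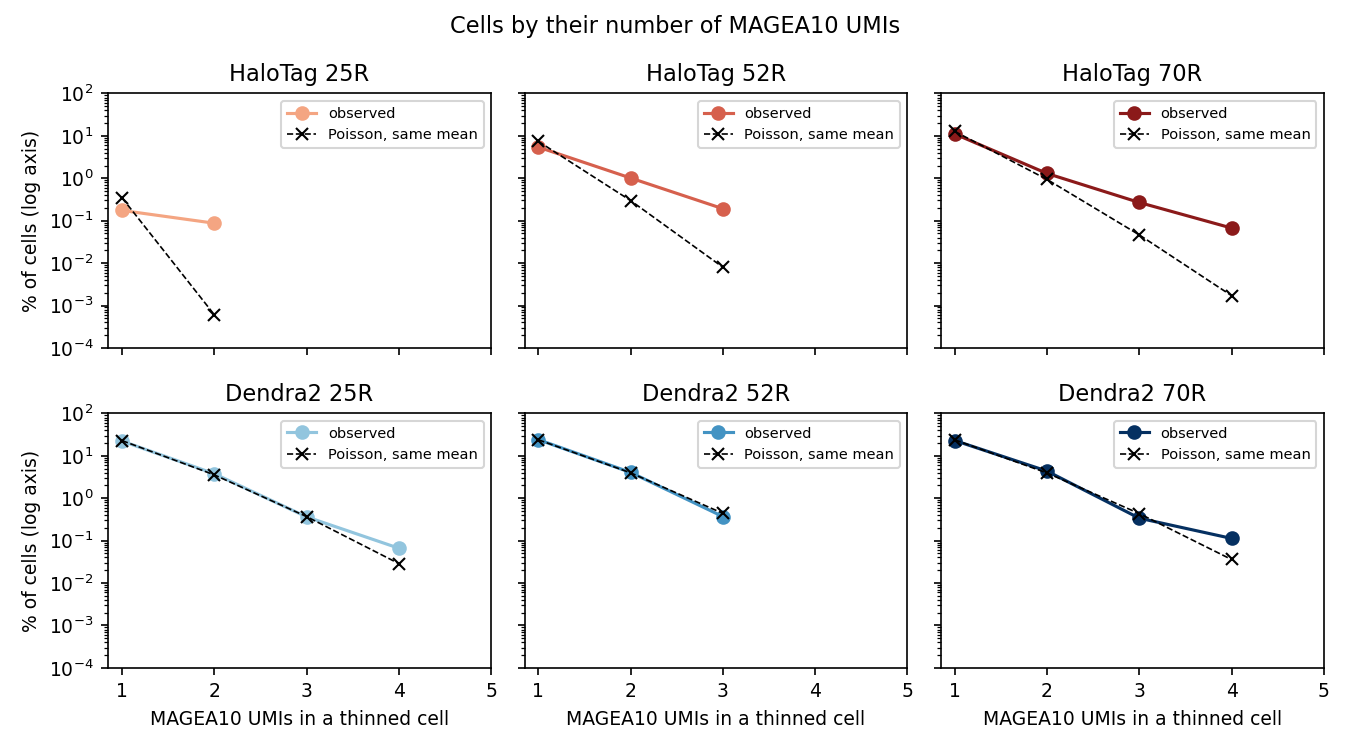
Percent of cells (log axis) with 1 or more MAGEA10 UMIs after thinning each cell to 5000 UMIs, 1 panel per library. Coloured points are observed and crosses give a Poisson count of the same mean. The observed points of HaloTag 52R lie above the crosses at 2 and 3 UMIs, while those of Dendra2 52R follow them.

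The cells of HaloTag 52R with and without MAGEA10 were then compared over all other genes, also after these values had been seen. Among 8247 genes found in at least 5% of thinned cells, the most negative correlations with MAGEA10 over 3644 cells were those of RPS21 (r = -0.22), PSMA7 (-0.14) and ATP5F1E (-0.13). They encode a ribosomal protein, a proteasome subunit and a subunit of mitochondrial ATP synthase. All 3 lie near the end of the long arm of chromosome 20, with RPS21 at 62387103 to 62388520. The largest positive correlation was that of MT1G, a metallothionein gene (r = 0.11). SNHG29 on chromosome 17 (-0.12) and ZFAS1 on chromosome 20 (-0.12) were the next most negative. The cells share 1 library and its depth, and correlations of this size are a description.

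The pattern ran along chromosome 20. In HaloTag 52R, the share of UMIs from chromosome 20 was lower in cells with a MAGEA10 UMI than in cells without, by a log2 ratio of -0.22. On the other 22 chromosomes examined (the other autosomes and X) the log2 ratio lay between -0.04 (chromosome 11) and 0.07 (chromosome 16). In steps of 10 Mb along chromosome 20 the log2 ratios were 0.12, 0.04, 0.14 and 0.05 up to 40 Mb, and -0.29, -0.36 and -0.56 from there to the end. Of 97 genes beyond 40 Mb found in at least 5% of thinned cells, 85 (87.6%) were lower on average in the MAGEA10-positive cells, against 41.3% of 8150 genes elsewhere. In HaloTag 70R the matching values were 52.2% of 90 genes against 42.1% elsewhere, in Dendra2 25R 53.7% of 95 against 46.7%, in Dendra2 52R 40.4% of 99 against 43.5%, and in Dendra2 70R 55.2% of 87 against 48.0%. HaloTag 25R gave 72.2% of 97 against 54.5%, from 9 positive thinned cells. The whole of chromosome 20 had a log2 ratio of -0.23 there, with the other chromosomes between -0.19 and 0.34. Those 4 libraries with many MAGEA10-positive cells therefore did not show the chromosome 20 pattern at the size of HaloTag 52R.

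The cells of each library were also ranked by their share of UMIs from the distal part of chromosome 20 (415 genes starting at 40 Mb or beyond). This region was chosen for its lower share in the MAGEA10-positive cells of HaloTag 52R. In that library the ranking therefore restates the same counts and is not a second test. In HaloTag 52R, MAGEA10 stood at 45.7 CPM in the lowest quintile of cells, 23.0 in the next, then 5.96, 5.08 and 2.59 CPM in the highest. The share of cells with a MAGEA10 UMI went from 38.3% in the lowest quintile to 2.43% in the highest. Median depth was 12922 UMIs per cell in the lowest quintile and 12646 in the highest, and the median mitochondrial share was 9.43% and 8.12%. In HaloTag 70R the lowest and highest quintiles had 34.1 and 26.0 CPM, in Dendra2 25R 61.2 and 54.7, in Dendra2 52R 63.7 and 66.3, and in Dendra2 70R 76.0 and 60.0. The quintiles were not equally far apart in each library. From lowest to highest, the median distal share went from 1.02 to 2.11% in HaloTag 52R. It went from 1.28 to 2.23% in Dendra2 25R and from 1.39 to 2.22% in Dendra2 52R. In HaloTag 70R (1.21 to 1.70%) and Dendra2 70R (1.02 to 1.39%) the range was narrower, with less room for a difference. In HaloTag 25R, 25 of the 31 MAGEA10 UMIs were in the lower 2 quintiles (8 and 17), and 1 was in the highest. In HaloTag 52R the level in the lowest quintile over that in the highest was 17.6 for MAGEA10, against 1.03 for MAGEA1, 1.04 for MAGEA4, 1.21 for MAGEA6, 0.959 for MAGEA12 and 1.12 for MAGEB2. It was 1.51 for MAGEA3, from few UMIs, and MAGEC2 had none in either quintile. MAGEA3 followed the ranking the other way in HaloTag 70R, with 0.101 CPM in the lowest quintile, 0.0917 to 0.174 in the middle 3 and 2.20 in the highest, from 29 UMIs in all. With RPS21, which gave 24.6% of the region's UMIs, left out of the ranking, MAGEA10 in HaloTag 52R was at 41.7 CPM in the lowest quintile and 3.39 in the highest. In HaloTag 70R the order turned, to 27.7 and 30.0 CPM. DNA copy number was not measured, and the part of chromosome 20 dosage or of a mixed cell population in the MAGEA10 pattern was not tested.

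**Figure D4:**
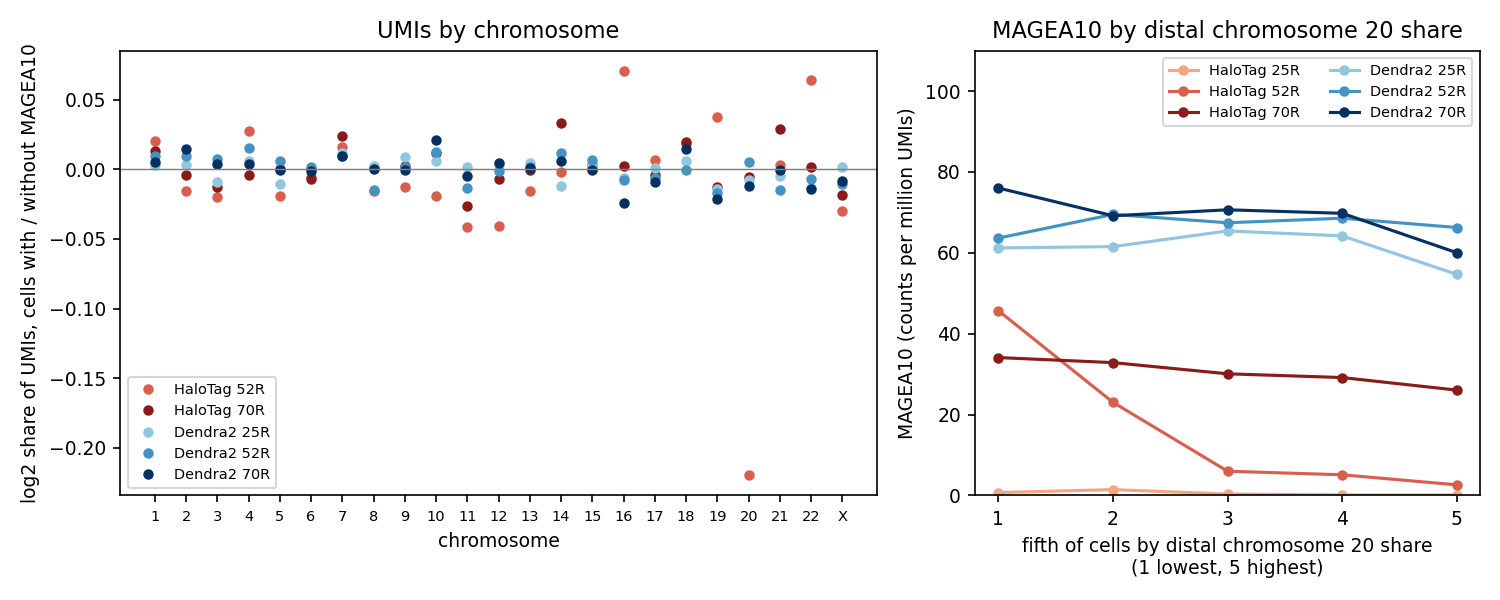
Left, log2 ratio of the share of UMIs per chromosome between cells with and without a MAGEA10 UMI, 1 point per library (HaloTag 25R, with 9 positive thinned cells, is not drawn). Right, MAGEA10 in CPM in quintiles of cells ranked by their share of UMIs from distal chromosome 20. HaloTag 52R stands apart at chromosome 20 (-0.22) and goes from 45.7 to 2.59 CPM over the quintiles.

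Within the MAGE-A cluster, MAGEA4 (chromosome X, 151912495 to 151925171), the member with the most UMIs, stayed high in every library. Its HaloTag values were 409, 334 and 364 CPM, and its Dendra2 values 427, 375 and 439 CPM. Between 94.5% and 98.2% of cells held at least 1 MAGEA4 UMI, the most of any member, and the gene lies 208 kb from MAGEA10. The part of free RNA in these shares was not tested. Its K1 ran from 2.85 to 5.08, and its observed share of cells was 0.974 to 0.993 times the Poisson share. Among the thinned cells of HaloTag 52R, MAGEA4 was found in 80.2% of those with a MAGEA10 UMI and 80.6% of those without.

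MAGEA1, the gene of the first human tumour antigen found to be seen by T cells, had 77.7, 86.1 and 88.1 CPM with HaloTag. With Dendra2 it had 90.9, 96.8 and 98.2 CPM. MAGEA12 had 80.2, 66.6 and 66.1 CPM with HaloTag, against 75.1, 72.3 and 78.3 CPM with Dendra2. For MAGEB2, which lies far from the MAGE-A cluster on the short arm of X, HaloTag values were 83.7, 73.7 and 72.6 CPM, and Dendra2 values 70.0, 71.0 and 82.7 CPM. The HaloTag and Dendra2 values overlapped for MAGEA12 and MAGEB2, and MAGEA1 was lower in all 3 HaloTag libraries by a narrow margin. K1 of these 3 genes lay between 2.55 and 5.93 in the 6 libraries, so none had a library with the low K1 of MAGEA10.

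MAGEA6, whose protein is known to bind the ligase TRIM28, had 31.4, 36.8 and 28.4 CPM with HaloTag, against 48.8, 51.0 and 47.0 CPM with Dendra2. The tags did not overlap, as for MAGEA10 and MAGEA1, though the gap was far smaller than that of MAGEA10. Without the share of all genes with such a split, nothing is read from it. Its observed share of cells was 0.982, 0.994 and 0.993 times the Poisson share in the HaloTag libraries, and K1 was 3.65, 5.37 and 5.00. The lower MAGEA6 level was therefore spread over the cells, in contrast to MAGEA10.

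MAGEA3, with the same promoter letters as MAGEA6 and a protein that also binds TRIM28, was far lower. The HaloTag libraries held 83, 86 and 29 UMIs of it (1.42, 1.60 and 0.534 CPM). The Dendra2 libraries held 37, 43 and 79 (0.702, 0.818 and 1.47 CPM). Few cells held it, between 25 (HaloTag 70R) and 76 (HaloTag 25R). In Dendra2 70R, 58 cells held the 79 UMIs, and the 16 cells with 2 or more held 46.8% of them. In Dendra2 52R, 11 of 32 positive cells had 2 or more. The observed share of cells was 0.928, 0.860 and 0.865 times the Poisson share with HaloTag, and 0.817, 0.751 and 0.747 times with Dendra2. Genes of similar level had medians of 0.987 to 1.01. Cells with 2 or more MAGEA3 UMIs numbered 6, 11 and 4 with HaloTag, and 5, 11 and 16 with Dendra2. The exact 95% interval of the observed share held the Poisson share in 5 of the 6 libraries. Both shares come from the same few UMIs, so this interval cannot decide whether MAGEA3 was spread evenly. In Dendra2 70R the interval (1.62 to 2.75%) lay below the Poisson share of 2.86%. Its K1 was 0.152, 0.0675 and 0.0199 with HaloTag, and 0.0247, 0.0213 and 0.0380 with Dendra2. Genes at such a level had wide K1 quartiles, 0.580 and 10.2 in HaloTag 70R. The authors' limits for MAGEA3 lay below the lower quartile in each library. They came closest to it in HaloTag 25R, at 0.0670 to 0.503 against 0.770. These K1 values rest on few UMIs.

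The cells with MAGEA3 did not stand out for MAGEA6. In Dendra2 70R, MAGEA6 was at 52.5 CPM in cells with a MAGEA3 UMI and 46.8 CPM in the others, and in Dendra2 52R at 47.9 and 51.0 CPM. In HaloTag 52R, MAGEA6 was at 29.3 CPM in the 73 cells with MAGEA3 and 37.0 CPM in the others. MAGEA10 was at 36.3 CPM in those cells of HaloTag 52R and 15.7 CPM in the others, while in HaloTag 70R it was at 31.5 and 30.4 CPM. MAGEA3-positive cells were deeper than the others, with medians of 23239.5 and 18672.5 UMIs in Dendra2 70R, and the part of depth in these values was not tested.

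MAGEC2, another partner of TRIM28, was close to absent. Its UMIs numbered 7, 1 and 2 with HaloTag, and 9, 5 and 4 with Dendra2. At 0.0186 to 0.171 CPM its shares of cells (at most 0.256%) and its K1 rest on too few counts to compare.

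A fit over all genes of the 6 libraries (edgeR quasi-likelihood, tag plus CTD length, 2 residual degrees of freedom) gave the background for these differences. Between HaloTag and Dendra2, 50 of 18761 genes tested passed an adjusted p under 0.05 (0.267%), and 0 of the 7 members tested did. MAGEC2 did not pass the filter on low counts. Between 25R and 52R, 8 genes passed (0.0426%), and between 70R and 52R and between 70R and 25R none did (0% each), with 0 members in each. At an unadjusted p under 0.05, 3650, 2433, 873 and 2331 genes were below the threshold in these 4 comparisons. The members were chosen on the same counts, so nothing is read from their number. The DESeq2 test of the same design called 1158, 512, 67 and 455 genes, with 1, 0, 0 and 0 members, and that 1 member was MAGEA6.

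The fitted log2 difference of MAGEA10 for HaloTag against Dendra2 was -2.96 with a standard error of 1.04. Standard errors of the edgeR fit were derived here from its test, as the log2 difference over the square root of F. DESeq2 gave -3.10 with a standard error of 1.30. Both fits take the tag difference as equal at each CTD length, whereas MAGEA10 was 116-fold below Dendra2 in one HaloTag library and 2.02-fold in another. For MAGEA6 the edgeR tag difference was -0.70 with a standard error of 0.13. The other 5 members tested lay between -0.27 and 0.12, and the median of all genes was 0.03. For CTD length, MAGEA10 had log2 differences of -1.38 ± 1.19 (standard error) for 25R against 52R, 0.67 ± 1.07 for 70R against 52R and 2.05 ± 1.26 for 70R against 25R. Within the tags, the order over CTD length was 25R, 52R, 70R from low to high in both, though the Dendra2 libraries spanned only 61.5 to 69.1 CPM. Without HaloTag 25R the fitted 25R against 52R difference turned to 0.12, and without HaloTag 70R the fitted 70R against 52R difference turned to -1.33. Each fitted value thus depends on a single library. Neither of these signs was that of the Dendra2 libraries themselves. Their log2 ratios of CPM were -0.13 for 25R against 52R and 0.04 for 70R against 52R.

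MAGEA10 was found together with other members about as often as independent detection gives. In HaloTag 52R, 194 thinned cells held both MAGEA10 and MAGEA4 where the product of the 2 shares gives 195, and the ratio over MAGEA1, MAGEA6, MAGEA12 and MAGEB2 ran from 0.959 to 1.10. In HaloTag 70R the 5 ratios ran from 0.951 to 1.14. The median over all genes found in 5 to 95% of cells was 1.03 and 1.02.

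No gene within 1 Mb of MAGEA10 with a mean of at least 1 CPM came near its span of 0.530 to 69.1 CPM over the libraries. Of 35 genes in that window, 4 of them members, 12 had such a mean. For HaloTag against Dendra2, 11 of the 16 tested lay below 0, with a median log2 of -0.21 against 0.03 for all genes, and 0 of the 16 passed the threshold in any of the 4 comparisons of the edgeR fit. GABRA3, a GABA receptor subunit gene and the nearest of those 12, had 1.04, 2.97 and 2.95 CPM with HaloTag, against 1.57, 2.47 and 2.57 CPM with Dendra2. VMA21, an assembly factor of the vacuolar proton pump, ranged from 67.9 to 125 CPM, and CETN2, a centrin, from 59.9 to 85.0 CPM. Both had their highest and their lowest level in HaloTag libraries. NSDHL, an enzyme of cholesterol synthesis, ranged from 31.9 to 44.5 CPM. PNMA6A, a gene of the paraneoplastic antigen family, had 8.32, 12.0 and 12.3 CPM with HaloTag, against 14.9, 14.1 and 13.4 CPM with Dendra2. As for MAGEA10, MAGEA6 and MAGEA1, its HaloTag values were all below its Dendra2 values, over a far smaller span than that of MAGEA10. How common this is among all genes is not given here.

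Over the 6 libraries, the genes whose log2 CPM followed MAGEA10 most closely among 8184 genes were ZNF146 (r = 1.00 after rounding, from 20.9 CPM in HaloTag 25R to 39.7 in Dendra2 70R), C16orf87, CENPQ, FNBP1 and EGLN2. These correlations rest on 6 points and mainly on HaloTag 25R, where each of the 5 was lowest, and none of the 5 came near the span of MAGEA10. EGLN2, a prolyl hydroxylase gene, had the widest of these ranges, from 15.3 to 47.1 CPM. Over the cells of Dendra2 70R, the library with the highest MAGEA10 level, the largest correlation was that of UBL4A (r = 0.07), too weak in sparse counts to be a finding.

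Of 17 other type I MAGE genes in the files, 3 reached a mean of 10 CPM and 6 had no UMI. MAGEA8 ranged from 11.8 to 19.6 CPM and MAGEA11 from 12.1 to 18.8 CPM. MAGEC1 had 11.8, 13.8 and 15.4 CPM with HaloTag, against 14.1, 1.16 and 11.6 CPM with Dendra2. Dendra2 52R was thus lowest for MAGEC1, 9.97-fold below the next library, in a library where MAGEA10 was among the highest. Of the 5 type I genes tested, 2 lay above 0 and 3 below for HaloTag against Dendra2, with a median log2 of -0.06 against 0.03 for all genes, and 0 passed. The 11 type II MAGE genes, which are active in many normal tissues, had 8 tested and 0 passed, with NDN, a growth regulator of nerve cells, at 127 to 142 CPM.

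Other cancer-testis genes, genes of DNA methylation and repressive chromatin, and known MAGE partners gave no called gene in the 4 comparisons of the edgeR fit either. Of the mesenchymal markers, FN1, the fibronectin gene, was called higher in HaloTag (log2 1.31, edgeR adjusted p = 0.033), and the part of such differences between the lines in the MAGE levels was not tested. Of 51 other cancer-testis genes, 26 were tested and 15 lay above 0 for the tag, with a median log2 of 0.10. Library-specific levels occurred there too: GTSF1, a gene of germline transposon silencing, stood at 0.0190 CPM (1 UMI) in Dendra2 25R and at 54.9 to 82.7 CPM in the others. CTAG2 ranged from 1.10 to 148 CPM. All 28 genes of DNA methylation and repressive chromatin were tested, and 23 of them lay below 0 for HaloTag against Dendra2 (median log2 -0.13, against 0.03 for all genes). Their summed level was 817, 1046 and 1045 CPM with HaloTag, against 955, 993 and 973 CPM with Dendra2. In sum, only HaloTag 25R thus lay below the Dendra2 libraries. Among them, DNMT1, the maintenance methyltransferase, had 98.9, 151 and 190 CPM with HaloTag, against 137, 145 and 140 CPM with Dendra2. UHRF1, its recruiting factor, ranged from 21.7 to 29.4 CPM. EZH2, the methyltransferase of the Polycomb complex, stood at 13.0 CPM in HaloTag 25R, the library with the least MAGEA10, and at 22.0 to 43.5 CPM in the others. Among 14 known partners of MAGE proteins, 12 lay above 0 for the tag (median log2 0.16), and TRIM28 itself ranged from 44.7 to 57.8 CPM.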

How the data were processed

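U2OS cells of 6 genotypes gave 6 single-cell libraries, 1 for each. The labels list 9 samples, since HaloTag libraries went through 2 sequencing runs, which the authors merged into 1 deposited matrix. The chemistry was 10x Genomics 3′, per the labels' protocols. The deposited UMI counts come from Cell Ranger 6.1.2, per the file headers, on GRCh38, per the submitters' processing notes. The authors' kinetic tables hold values with no fixed range (unit score here): a mean, K and squared coefficient of variation of a beta-Poisson fit per gene, each with limits, per the file headers. Its tool version was not given in the sources.

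Barcodes with under 500 genes or over 20% mitochondrial counts were dropped (2.01 to 3.03% of them). Doublets were not called, so a droplet of an expressing and a silent cell counts as 1 positive cell. The tag row of each matrix was left out. Counts were summed per library for CPM and for edgeR 4.0.16 (TMM factors, filterByExpr, Benjamini-Hochberg adjusted p under 0.05, R 4.3.3), tested on simulated data first. DESeq2 1.42.0 was the alternative tool. Shares of cells were computed on all kept cells and after thinning each to 5000 UMIs, which left out 34 to 217 cells per library. Intervals are exact Poisson or Clopper-Pearson at 95% and cover counting error only. Positions are those of GENCODE v44 on GRCh38, found for all but 235 of 36601 genes.

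The members and gene lists were chosen with earlier results of these data known. Named genes were all 8 members, the 5 genes most like MAGEA10 over libraries (mean of at least 10 CPM, prior count 2) and, over cells, in the library with its highest level, and genes from the lists. The gene examples taken from lists and the genes correlated with MAGEA10 in HaloTag 52R were chosen after their values were seen, as were the 40 Mb limit on chromosome 20 and the look at MAGEA3-positive cells. With 1 library per genotype, the tag by CTD interaction served as error, and cells were never replicates.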

Additional observations from a re-analysis of the deposited data

Results flagged for a closer look

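Between the tags, 3 differences of members over CTD length went in opposite directions, each beyond counting error and in the same direction when set against the median gene. The difference between the tags was not tested, since each genotype is 1 library. For MAGEA3, the log2 ratio of CPM of 70R against 52R was -1.58 with HaloTag and 0.85 with Dendra2, and that of 70R against 25R was -1.41 with HaloTag and 1.07 with Dendra2. For MAGEB2, the log2 ratio of 70R against 25R was -0.21 with HaloTag and 0.24 with Dendra2. The CPM of MAGEA4 also went in opposite directions for 70R against 25R (log2 -0.17 with HaloTag and 0.039 with Dendra2), but the median gene rose by 0.081 with Dendra2, so relative to it both were negative.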

How the results depend on the processing

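No paired analysis was possible because the shared numbers in the labels are sequencing runs of 1 library, merged in the files. Between HaloTag and Dendra2, 327 genes and 1 member (MAGEA6) were called with no low-count filter, DESeq2 called 1158 and 1 (MAGEA6), and leaving out 1 library gave 0 to 152 genes and 0 to 1 member (MAGEA10, when HaloTag 25R or Dendra2 25R was left out). For 25R against 52R these counts of genes were 104 with no filter, 512 with DESeq2 and 0 to 782 with 1 library left out, for 70R against 52R 2, 67 and 0 to 3, and for 70R against 25R 50, 455 and 0 to 746. With Dendra2 25R left out, MAGEA10 was the 1 member called for 25R against 52R and for 70R against 25R, and no other library gave a member there. The 25R group is then the single HaloTag 25R library, and MAGEA10 was chosen on these counts, so nothing is read from those calls. A fit with 1 library left out has 1 residual degree of freedom, and the lone library of a group is assumed to vary like the rest. Library totals in place of TMM factors moved the median log2 of all genes for the tag from 0.03 to 0.12.

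Of 308 log2 values of members under an alternative, 22 changed sign, 20 of them with 1 library left out. Over the left-out libraries MAGEA10 ran from -5.12 to 0.12 for 25R against 52R and from -1.33 to 1.80 for 70R against 52R. MAGEA3 ran from -0.32 to 0.87 for the tag, from -0.87 to 0.54 for 25R against 52R, from -1.54 to 0.83 for 70R against 52R and from -1.40 to 0.98 for 70R against 25R. MAGEB2 ran from -0.17 to 0.038, from -0.031 to 0.29, from -0.028 to 0.24 and from -0.18 to 0.14 in the same order, and library totals put it at 0.042 for the tag and 0.018 for 70R against 25R. For 70R against 52R, MAGEA1 ran from -0.022 to 0.093 and MAGEA12 from -0.020 to 0.14. The cause was not tested.

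The share of cells with a MAGEA10 UMI depends on depth by construction. From HaloTag 25R to Dendra2 70R it was 0.660, 14.4, 23.8, 58.8, 66.5 and 67.1% when unthinned. It was 0.0288, 3.76, 6.53, 14.0, 16.2 and 16.2% after thinning to 2500 UMIs, and 0.640, 14.2, 23.4, 57.8, 65.3 and 65.9% over all deposited barcodes, unthinned. In the deepest quartile of cells, the observed share of cells over the Poisson share was 0.628 in HaloTag 52R and 0.997 in Dendra2 25R, and in the other 4 libraries it stayed within counting error. MAGEA10 levels as a mean over cells stayed within counting error in all 6 libraries. For the other 7 members, 110 of 126 shares of cells moved by more than counting error, with 12 of 41 ratios to the Poisson share and 6 of 42 levels. Of 12 quintile levels of MAGEA10, 4 moved when RPS21 was left out, those of HaloTag 70R and Dendra2 70R. Negative binomial and zero-inflated fits to MAGEA10 counts per cell, added after seeing the data, are not reported, since those counts chose the members and cells are not replicates.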
